A study of Homo sapiens with 16 samples.

Results

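Replication-dependent histone genes are the genes of the HIST1, HIST2, HIST3 and HIST4 clusters that supply the core histones H2A, H2B, H3 and H4 and the linker histone H1 while DNA is copied. They were taken as every row of the count table whose gene symbol starts with HIST and a cluster number from 1 to 4 followed by H. There were 90 such rows among 57500 genes, and the 37 with at least 50 counts summed over the 16 libraries are described here. The libraries came from MDA-MB-231, a human triple-negative breast cancer cell line, carrying a doxycycline-inducible short hairpin RNA (shRNA) that was either a scrambled control (shScramble) or directed at AKAP2, which encodes an A-kinase anchoring protein. Each line was grown without or with doxycycline (dox). This gave 4 groups of 4 libraries, namely shScramble no dox, shScramble dox, shAKAP2 no dox and shAKAP2 dox. All 4 groups carry a hairpin construct, and the labels give neither the dose and time of dox nor the number of hairpins or clones. The labels number the libraries as biological replicates without naming the cultures behind them, and the p-values therefore describe variation among libraries that may in part be technical.

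Most mRNAs end in a poly(A) tail, but a replication-dependent histone mRNA normally ends just past a short stem-loop that is bound by the stem-loop binding protein and cut with the help of the U7 small nuclear RNA. Such mRNAs are made in S phase and degraded when DNA synthesis stops. Some of these genes also give a longer, polyadenylated transcript from a signal downstream of the stem-loop, a form known from differentiated and non-dividing cells. The RNA of this study was enriched on oligo(dT) beads, which bind poly(A) tails, so the counts describe histone RNA that was captured by poly(A) selection and not total histone RNA. In bulk RNA, fewer cells with a transcript and less transcript per cell cannot be told apart.

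The libraries held 24482997 to 37472525 counts. AKAP2 had 144 counts over the 4 shScramble no dox libraries, 212 with dox, 168 in shAKAP2 no dox and 4 in shAKAP2 dox, where single libraries had 0 to 3. Replicate 1 of shScramble no dox and replicate 1 of shScramble dox stood apart from the rest, with a median absolute log2 difference from the other libraries of their group of 0.263 and 0.295, and the counts of called histone genes are also given without both. VIM, a mesenchymal marker of this line, ranged from 1300 to 1810 CPM (counts scaled to the library total), and the hormone receptor genes ESR1 and PGR had 1 and 12 counts in all. Of the other markers listed as low in this line, CDH1 had 209 counts. ERBB2 and EPCAM went the other way, with 27378 counts (49.7 to 69.1 CPM) and 7231 counts (10.9 to 22.0 CPM). Blood cell markers summed to a mean of 89.0 CPM in shScramble no dox, 157 in shScramble dox, 77.1 in shAKAP2 no dox and 56.9 in shAKAP2 dox, mostly from LAPTM5. Luminal epithelial markers, 5 genes, summed to 174 to 201 CPM in shAKAP2 no dox and 218 to 235 in shAKAP2 dox, and to 168 to 286 and 191 to 308 CPM in shScramble no dox and shScramble dox. The sum of 6 fibroblast markers was 12.5 to 19.1 CPM in shScramble no dox, 21.9 to 28.4 in shScramble dox, 13.0 to 17.8 in shAKAP2 no dox and 14.1 to 16.4 in shAKAP2 dox. In this sum only the shScramble dox libraries stood apart, but single markers went different ways. Without dox, 2 of 5 tested were called higher and 1 lower in shAKAP2, beside 8.65% and 9.31% of all genes. The part of these cell types in the histone values was not tested.

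The stem-loop could be read directly in the annotated transcripts of 14 of the 37 genes. It was searched as a 6-base stem that starts with GG, a 4-base loop of the pattern TNTN, and the exact complement of the stem. The sequences below are shown because they are the 3′ processing element of members whose counts differed between groups. HIST1H2BN, also called between the lines, has a stem-loop in its annotated transcripts too and is not shown. All are DNA-strand sequences from GENCODE release 29 on GRCh38, written 5′ to 3′, with the 16 bases of the stem-loop in capitals.
HIST1H2AC, chr6:26124662-26124691, plus strand: acccaaaGGCTCTTTTCAGAGCCcccctac
HIST1H2BD, chr6:26158580-26158609, plus strand: tcccaaaGGCTCTTTTAAGAGCCacgcatg
HIST1H2BC, chr6:26123465-26123494, minus strand: ccccaaaGGCTCTTTTAAGAGCCacccaga
HIST1H3H, chr6:27810509-27810538, plus strand: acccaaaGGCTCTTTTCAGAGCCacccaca
HIST1H4I, chr6:27139647-27139676, plus strand: ctaaaaaGGCCCTTTTTAGGGCCcctaagc
HIST1H4H, chr6:26285124-26285153, minus strand: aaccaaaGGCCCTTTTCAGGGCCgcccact
The H2A, H2B and H3 genes shown share the same stem. HIST1H2AC and HIST1H3H have the same loop, HIST1H2BD and HIST1H2BC share another, and the 2 H4 genes carry a stem of their own. Each of these 6 genes has at least 1 annotated transcript that runs on past the stem-loop, by 1128 bases in HIST1H2AC, 39 in HIST1H2BD, 116 in HIST1H2BC, 769 in HIST1H3H, 212 in HIST1H4I and 1655 in HIST1H4H.

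The captured histone RNA came from few genes. The 37 members held 106390 of the 106606 counts of all histone rows, 58.3% of them in HIST1H1C and HIST1H2BK and 85.4% in 5 genes. At the 50-count limit, HIST1H2BM was just inside with 56 counts and HIST1H3J just outside with 40. Of the other 53 rows, 21 had 1 to 49 counts and 32 had none in any library, and a count of 0 over the 461969774 counts of all libraries allows a level of up to 0.00649 CPM (3 counts, counting error only). This limit holds only where reads can be placed on 1 gene, and shared sequence was not computed for these rows. HIST2H3A and HIST2H3C, both at 0, have the same annotated length of 1656 bases and the same 30-base stem-loop window. By annotation 33 members are protein coding, and 4 are not or could not be placed in GENCODE release 29.

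Per kilobase of annotated exon, the highest member was HIST1H2BK at 169 RPKM (CPM divided by length in kilobases), followed by HIST1H1C at 114, HIST1H4I at 21.8, HIST1H2AC at 14.4 and HIST1H2BD at 12.8. HIST1H2BK encodes an H2B and HIST1H1C the linker histone H1.2. The annotation of these 2 genes covers 381 and 642 bases and no stem-loop, so reads beyond the coding part could not be placed on them with it, and their RPKM rests on a short length. In 4 classes 1 gene gave most counts: HIST1H1C gave 97.0% of H1 counts, HIST1H4I 82.9% of H4, HIST1H2AC 78.6% of H2A and HIST1H2BK 70.3% of H2B. In H3 the counts were spread more evenly, with 546 in HIST1H3H (33.3%), 511 in HIST1H3C and 429 in HIST1H3B. H2B took 39.1% of the members' counts, H1 31.8%, H4 14.5%, H2A 13.1% and H3 1.54%.

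**Figure D1:**
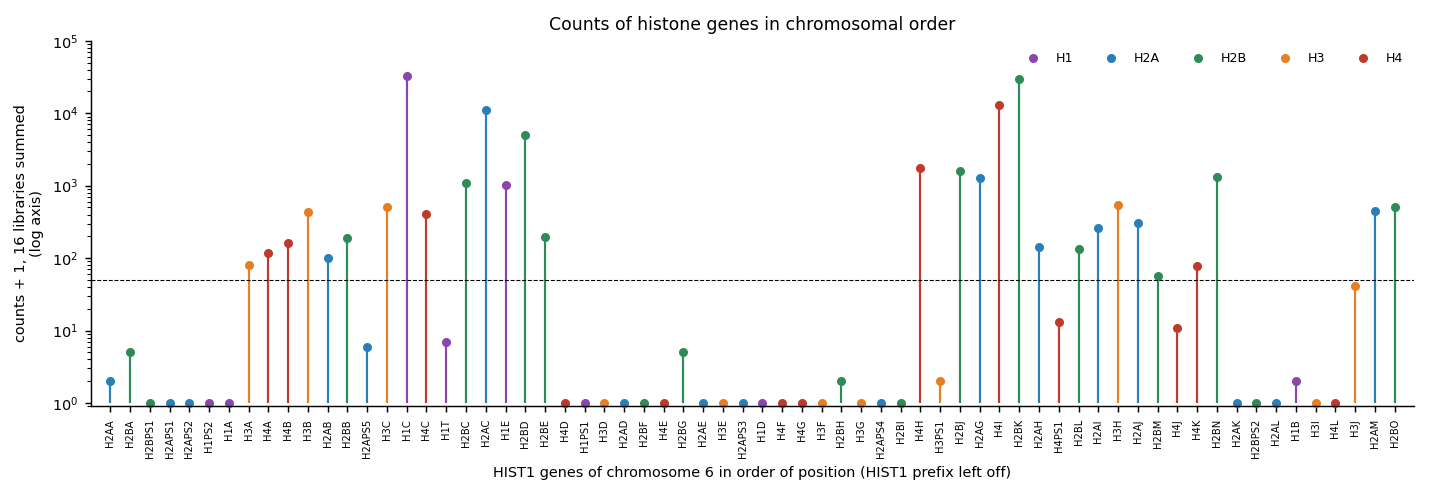
Counts plus 1 summed over the 16 libraries (log axis) for the HIST1 rows of chromosome 6 in order of position, coloured by histone class, with the 50-count limit dashed. A run of 18 rows from HIST1H4D to HIST1H2BI held 5 counts in all, between HIST1H2BE with 194 and HIST1H4H with 1770.

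Some stretches of neighbouring histone rows on chromosome 6 held hardly a count. From HIST1H4D to HIST1H2BI (chr6:26188765-26273356, 84.6 kb), 18 histone rows, 15 of them protein coding, lay in a row of 21 annotated genes that held 7 counts in all 16 libraries together, with 17 of the genes at 0; 5 of the counts were on histone rows, HIST1H2BG with 4 and HIST1H2BH with 1. The genes on either side, HIST1H2BE and HIST1H4H, had 194 and 1770 counts. From HIST1H2AK to HIST1H4L (chr6:27837947-27873510, 35.6 kb), 6 histone rows held 1 count. HIST1H2BN, with 1320 counts, is annotated over chr6:27837760-27865798, a span that covers part of this stretch. The longer stretch was low in every group, with 2, 0, 5 and 0 counts in shScramble no dox, shScramble dox, shAKAP2 no dox and shAKAP2 dox. Among these rows HIST1H3D, HIST1H2AD, HIST1H1PS1 and HIST1H2AK share 92.9% or more of their exon bases with another annotated gene, and reads there may not have been counted for either. The stretches were picked out after their counts were seen.

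The main comparison asked what dox did in the line whose hairpin targets AKAP2. Summed histone RNA was higher with dox in each of the 5 classes by mean. The median log2 fold change of tested members was below 0 in H3 (-0.016, 1 of 3 values above 0) and H4 (-0.42, 2 of 5). Of the 29 members that passed the filter on low counts, 6 rose: HIST1H1C, HIST1H2BK, HIST1H4I, HIST1H2AC, HIST1H2BD and HIST1H3H. No member fell. The 6 are 20.7% of the tested members, beside 13.1% of all 15566 tested genes called higher and 15.2% called lower (edgeR quasi-likelihood test, adjusted p under 0.05 over all genes). The median log2 fold change of the 29 was 0.16, against 0.00159 over all genes, and 17 of 29 values were above 0. The 6 include the 5 most abundant members, and every call was among the 15 tested members with a mean of 1 CPM or more (6 of 15), with 0 of 14 below it. The filter left out 8 members, HIST1H4A, HIST2H2BC, HIST1H2AB, HIST2H2BB, HIST1H3A, HIST1H4K, HIST2H3DP1 and HIST1H2BM, and without the filter none of them was called.

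HIST1H1C is a linker histone gene whose product binds DNA between nucleosomes. Its level was 127, 138, 135 and 128 CPM in replicates 1 to 4 of shAKAP2 dox, against 62.8, 65.5, 66.2 and 59.8 CPM in shAKAP2 no dox. In shScramble it was 37.4, 52.2, 53.8 and 51.2 CPM without dox and 43.6, 50.3, 49.0 and 46.4 CPM with dox. All 4 shAKAP2 dox libraries lay above the 12 others, and the shAKAP2 no dox libraries lay above all 8 shScramble libraries. The dox effect in shAKAP2 was a 2.08-fold rise (log2 1.06, SE 0.0904, edgeR adjusted p 2.21e-08), and in shScramble the log2 value was -0.04 (SE 0.0908, adjusted p 0.961). The other H1 member, HIST1H1E, which encodes H1.4, gave a log2 value of 0.05 (SE 0.27) in shAKAP2.

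HIST1H2BK had 104, 102, 108 and 106 CPM in shAKAP2 dox and 66.3, 62.8, 60 and 62.8 CPM in shAKAP2 no dox. The shScramble libraries had 44.4, 49.9, 47.0 and 45.8 CPM without dox and 45.4, 42.3, 43.1 and 42.2 CPM with dox. The 2 shAKAP2 groups did not overlap with each other or with shScramble, and the dox effect was 1.67-fold in shAKAP2 (log2 0.74, SE 0.0611, edgeR adjusted p 1.41e-08). Of the 50-base stretches of its annotated sequence, 74.1% also occur in other annotated genes, first of all the H2B gene H2BFS, so reads may be shared between copies.

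HIST1H4I is a histone H4 gene. Its level was 41.7, 49.0, 44.8 and 44.6 CPM in shAKAP2 dox against 28.4, 27, 24.3 and 26.9 CPM in shAKAP2 no dox. In shScramble it was 19.4, 23.6, 20.5 and 22.0 CPM without dox and 20.1, 22.5, 15.9 and 19.5 CPM with dox. The shAKAP2 dox libraries were the 4 highest, and the rise was 1.69-fold (log2 0.75, SE 0.0969, edgeR adjusted p 5.61e-06). HIST1H4I and HIST1H2BK lie on opposite strands, and RefSeq (GRCh38.p14) draws HIST1H2BK over chr6:27138293-27146858, a span of 8566 bases that covers HIST1H4I. The exons within this span were not read, so it is not known whether a HIST1H2BK transcript covers HIST1H4I. The strand setting of the counting is not given in the sources used here. Reads of such a transcript could therefore not be told apart from reads of HIST1H4I.

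HIST1H2AC, an H2A gene, had 31.5, 33.3, 34.0 and 32.5 CPM in shAKAP2 dox against 20, 22.5, 25.6 and 23 CPM without dox. The shScramble values were 21.1, 19.9, 17.3 and 20.4 CPM without dox and 22.9, 18.5, 24.4 and 18.2 CPM with dox. Only the shAKAP2 dox libraries separated from the rest, at 1.44-fold over shAKAP2 no dox (log2 0.53, SE 0.103, edgeR adjusted p 0.000617). HIST1H2BD, an H2B gene, had 17.2, 16.2, 21.5 and 17.2 CPM in shAKAP2 dox against 9.56, 8.37, 11.7 and 9.17 CPM without dox. The shScramble values of HIST1H2BD were 10.1, 8.22, 6.28 and 7.61 CPM without dox and 10.2, 7.91, 8.52 and 8.28 CPM with dox. Again the 4 shAKAP2 dox libraries were above all others, at 1.86-fold (log2 0.90, SE 0.145, edgeR adjusted p 8.77e-05).

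HIST1H3H was the only H3 gene called, at a far lower level. It had 2.18, 1.17, 2.25 and 2.05 CPM in shAKAP2 dox, from 32 to 60 counts a library, and 0.543, 0.729, 1.03 and 0.764 CPM in shAKAP2 no dox. In shScramble it had 1.1, 1.51, 1.04 and 1.65 CPM without dox and 0.857, 0.611, 0.782 and 1.04 CPM with dox. The 2 shAKAP2 groups did not overlap (2.5-fold, log2 1.32, SE 0.308, edgeR adjusted p 0.00275), but shAKAP2 dox overlapped with shScramble no dox. The other tested H3 genes, HIST1H3C and HIST1H3B, had log2 values of -0.24 (SE 0.312) and -0.02 (SE 0.561).

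**Figure D2:**
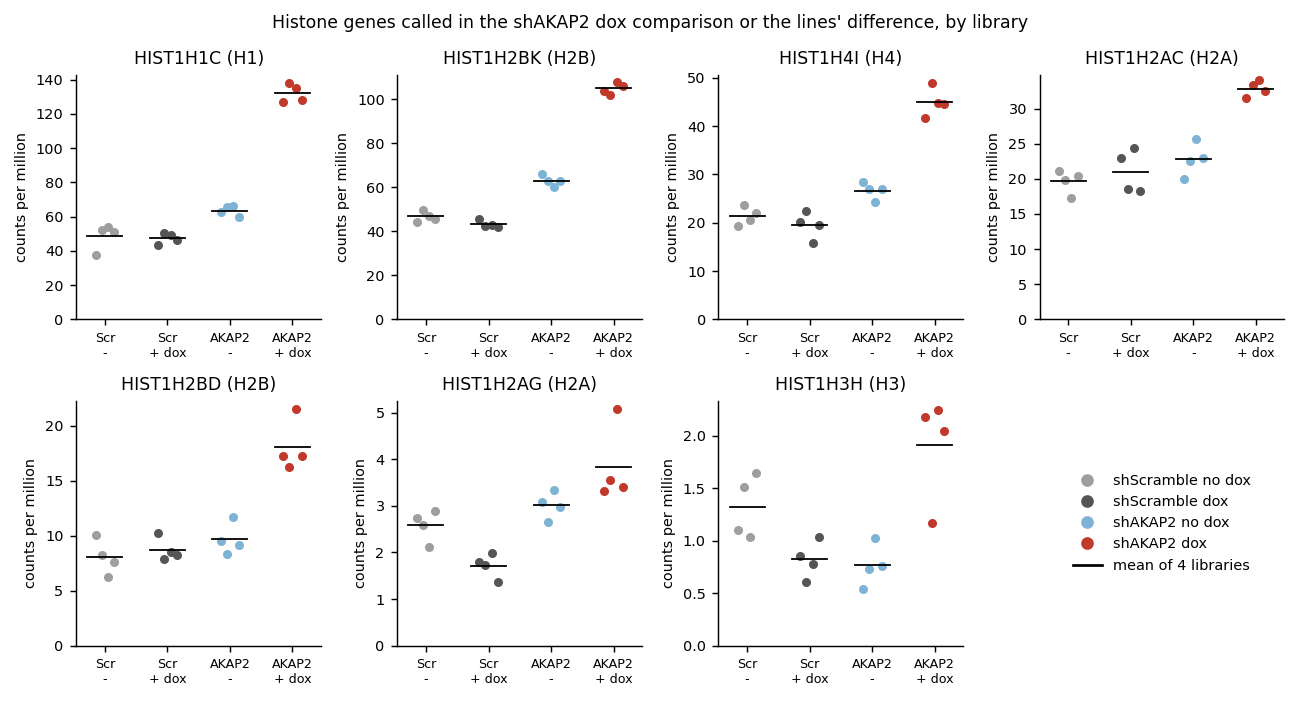
Level in CPM (linear axis from 0) of the 7 genes called in the shAKAP2 dox comparison or in the difference between the lines, with 1 point per library and the mean of 4 as a line; Scr is shScramble. In HIST1H1C, HIST1H2BK, HIST1H4I, HIST1H2AC and HIST1H2BD all 4 shAKAP2 dox libraries lie above the 12 others.

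In the shScramble line, no change with dox was called: 0 of 29 were called higher and 0 lower by the edgeR quasi-likelihood test, beside 0.559% and 0.52% of all genes, with 3 of 29 at an unadjusted p under 0.05. DESeq2 and limma-voom also called 0, beside 168 and 84 of 15566 genes called higher and 132 and 76 lower. The median log2 value was -0.13 against -0.000408 over all genes, and 9 of 29 values were above 0. The 3 with an unadjusted p under 0.05 were all lower with dox, HIST1H2AG (log2 -0.59, edgeR adjusted p 0.252), HIST1H3H (log2 -0.67, edgeR adjusted p 0.498) and HIST2H2BA (log2 -1.25, edgeR adjusted p 0.412), named here after their values were seen.

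**Figure D3:**
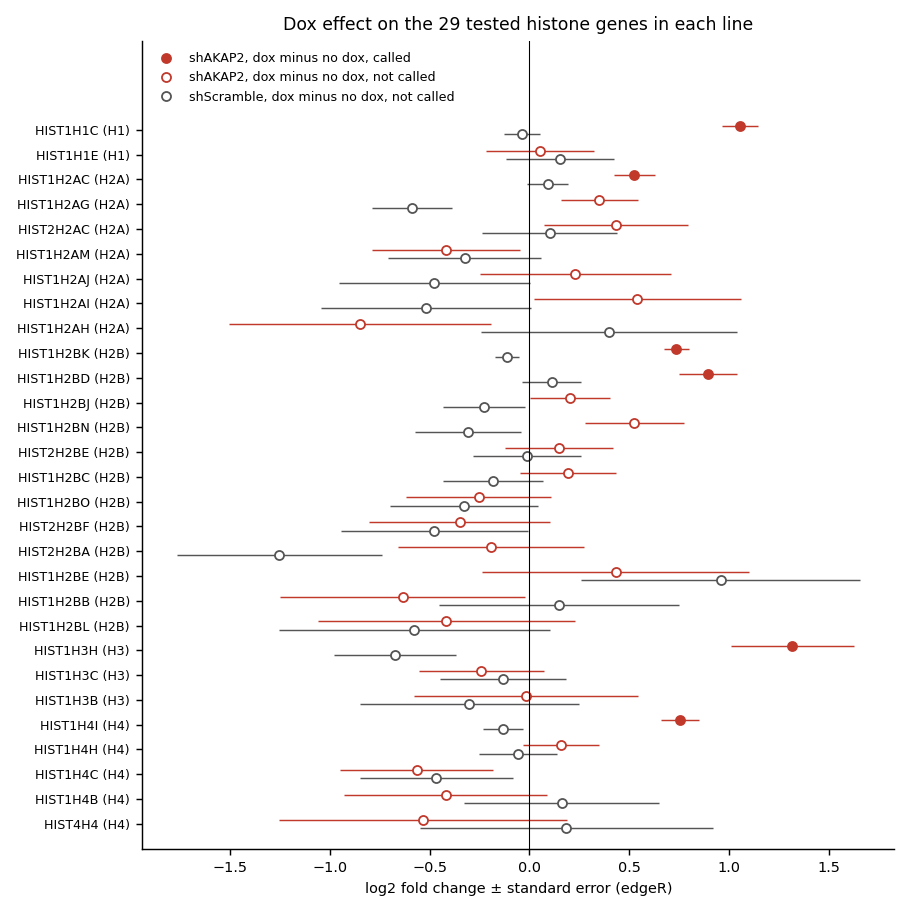
Log2 fold change with its standard error for dox against no dox in each line, for the 29 tested members ordered by class and level (filled, adjusted p under 0.05). The 6 filled points, from 0.53 for HIST1H2AC to 1.32 for HIST1H3H, are all in shAKAP2; no shScramble value was called.

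The difference between the lines' dox effects was tested directly. It was above 0 and called for 7 of 29 members and below 0 for none, beside 7.53% of all genes called higher and 10.5% lower, with a median of 0.28 against 0.00319. The difference on the log2 scale was 1.09 for HIST1H1C (SE 0.128, edgeR adjusted p 3.88e-06), 0.85 for HIST1H2BK (SE 0.0868, edgeR adjusted p 6.62e-07) and 0.89 for HIST1H4I (SE 0.138, edgeR adjusted p 0.000113). For HIST1H3H it was 1.99 (SE 0.435, edgeR adjusted p 0.00289), made up of 1.32 in shAKAP2 and -0.67 in shScramble. HIST1H2BD gave 0.79 (SE 0.207, edgeR adjusted p 0.0115). HIST1H2AC was near the threshold at 0.43 (SE 0.147, edgeR adjusted p 0.0447) and passed it in 9 of 22 alternatives, with adjusted p from 0.0193 to 0.101.

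HIST1H2AG, an H2A gene, was called in the difference although neither line's own dox effect was called. It had 3.33, 3.55, 5.07 and 3.4 CPM in shAKAP2 dox, 3.09, 2.65, 3.35 and 2.97 CPM in shAKAP2 no dox, 2.74, 2.58, 2.11 and 2.89 CPM in shScramble no dox and 1.79, 1.73, 1.99 and 1.37 CPM in shScramble dox. The shScramble dox libraries were the 4 lowest, and the shAKAP2 groups overlapped. Its dox effect was 0.35 in shAKAP2 (SE 0.193, edgeR adjusted p 0.193) and -0.59 in shScramble (SE 0.201), a difference of 0.94 (SE 0.279, edgeR adjusted p 0.0236), which rested in part on the library at 5.07 CPM: without shAKAP2 dox replicate 3 it was 0.78 (edgeR adjusted p 0.0659).

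The lines already differed before dox. In shAKAP2 no dox against shScramble no dox 4 of 29 members were higher and 0 lower, beside 8.65% and 9.31% of all genes, with a median of 0.32 against -0.0129. HIST1H2BK was 63.0 ± 2.59 against 46.8 ± 2.32 CPM (SD, n = 4; log2 0.43, edgeR adjusted p 9.45e-05) and HIST1H1C 63.6 ± 2.9 against 48.7 ± 7.56 CPM (SD, n = 4; log2 0.39, edgeR adjusted p 0.00629). HIST1H4I was 26.7 ± 1.7 against 21.4 ± 1.8 CPM (SD, n = 4; log2 0.32, edgeR adjusted p 0.0289) and HIST1H2BN, another H2B gene, 3.34 ± 0.791 against 1.95 ± 0.386 CPM (SD, n = 4; log2 0.78, edgeR adjusted p 0.0411). The calls of HIST1H4I and HIST1H2BN were lost without single libraries, and both were lost without shScramble no dox replicate 1 (edgeR adjusted p 0.0703 and 0.107), shAKAP2 no dox replicate 1 (0.0888 and 0.142) or shAKAP2 no dox replicate 2 (0.0683 and 0.0984).

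With dox in both lines, 12 of 29 members were higher in shAKAP2 and 0 lower, beside 18.7% of all genes called higher and 21.5% lower. The median was 0.54 against -0.0101, and 23 of 29 values were above 0. This comparison and those above share libraries, so their calls are not separate evidence. Besides the 7 genes called in the difference, the 12 held 5 genes. HIST1H2BN was 4.81 ± 0.458 CPM in shAKAP2 dox and 1.56 ± 0.646 in shScramble dox (SD, n = 4; log2 1.61, edgeR adjusted p 5.13e-05). HIST1H2BC was 3.2 ± 0.593 against 1.71 ± 0.203 CPM (SD, n = 4; log2 0.90, edgeR adjusted p 0.00634), and HIST1H2BJ 4.53 ± 0.431 against 2.64 ± 0.542 CPM (SD, n = 4; log2 0.78, edgeR adjusted p 0.00445). The other 2 were less firm. HIST1H4H was 4.72 ± 0.28 against 3.26 ± 0.4 CPM (SD, n = 4; edgeR adjusted p 0.0332). The pseudogene HIST2H2BA, at 0.634 ± 0.275 against 0.21 ± 0.161 CPM (SD, n = 4; edgeR adjusted p 0.021), was the only called member whose groups overlapped, and 73.6% of its 50-base stretches occur in other annotated genes. Without both shScramble replicate 1 libraries the counts called higher were 7, 0, 7, 6 and 11 in the 5 comparisons in the order given, and 0 lower in each. The calls over all genes changed as well in this fit. Of 15759 genes tested, 3037, 588, 2256, 2130 and 3317 were called higher and 3165, 414, 2567, 2026 and 3532 lower. HIST1H2BN was added in the shAKAP2 dox comparison and HIST2H2BA dropped from the last (edgeR adjusted p 0.0694). HIST1H2BD and HIST2H2BB were added between the lines without dox. HIST2H2BB, which the filter of the main fit left out, was also called there without either of these 2 libraries alone.

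Summed over all 37 members, histone RNA was 176 ± 12.7 CPM in shScramble no dox, 167 ± 3.96 in shScramble dox, 223 ± 3.22 in shAKAP2 no dox and 374 ± 11.1 in shAKAP2 dox (SD, n = 4). H1 went from 65.9 ± 3.13 CPM in shAKAP2 no dox to 134 ± 5.35 with dox, H2B from 90.7 ± 3.48 to 143 ± 5.21, H4 from 33.1 ± 1.98 to 51.4 ± 3.34, H2A from 29.5 ± 2.53 to 40.4 ± 2.43 and H3 from 3.3 ± 0.345 to 4.12 ± 0.352. The shAKAP2 dox libraries were the highest in H1, H2A, H2B and H4, with no overlap with another group. In H3 they ran from 3.66 to 4.48 CPM, within the 2.98 to 5.12 of shScramble no dox. The sums of H1, H2A, H2B and H4 rest mostly on 1 gene each, and no sum was given a test, since the members were chosen with results known. In H3, HIST1H3H went from 0.766 to 1.91 CPM with dox in shAKAP2, while HIST1H3C went from 1.29 to 1.09 and HIST1H3B from 0.9 to 0.886.

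**Figure D4:**
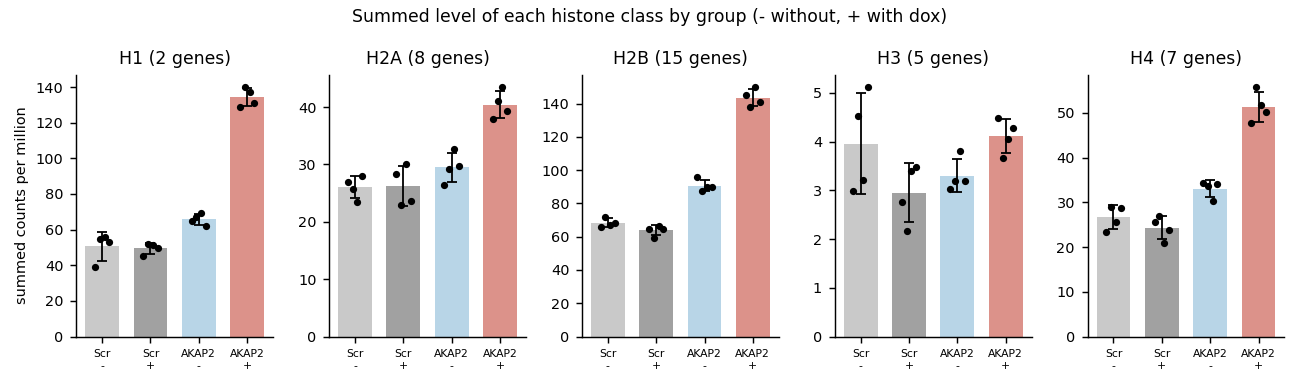
Summed CPM of the members of each histone class (bars, mean of 4 libraries; error bars, SD; points, libraries), with - for no dox and + for dox; Scr is shScramble. H1 stands at 134 in shAKAP2 dox against 65.9 without dox, and H3 stays at 2.95 to 4.12 in all 4 groups.

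Since the libraries were poly(A) selected, members were also divided by what GENCODE release 29 draws at the 3′ end. A member was counted as having an extended end if a transcript holds AATAAA or ATTAAA in its last 60 bases or runs 100 bases or more past the stem-loop, which 13 of the tested members do. Of these 13, 4 rose in shAKAP2 with dox, HIST1H4I, HIST1H2AC, HIST1H2BD and HIST1H3H, with a median log2 value of 0.35. Of the 16 others 2 rose, HIST1H1C and HIST1H2BK, with a median of -0.22. In shAKAP2 against shScramble with dox, 9 of 13 and 3 of 16 were higher. A level of 1 CPM or more was reached by 10 of the 13 and by 5 of the 16, so the 3′ end and the level move together, and their separate parts were not tested. For HIST1H2BK the RefSeq span of 8566 bases reaches far past the coding part, while for HIST1H1C it is 731 bases (chr6:26055740-26056470). These spans include any introns, and no transcript length was read from RefSeq. Of the genes that rose with dox in shAKAP2, only HIST1H1C has neither an extended end in GENCODE nor a long RefSeq span.

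**Figure D5:**
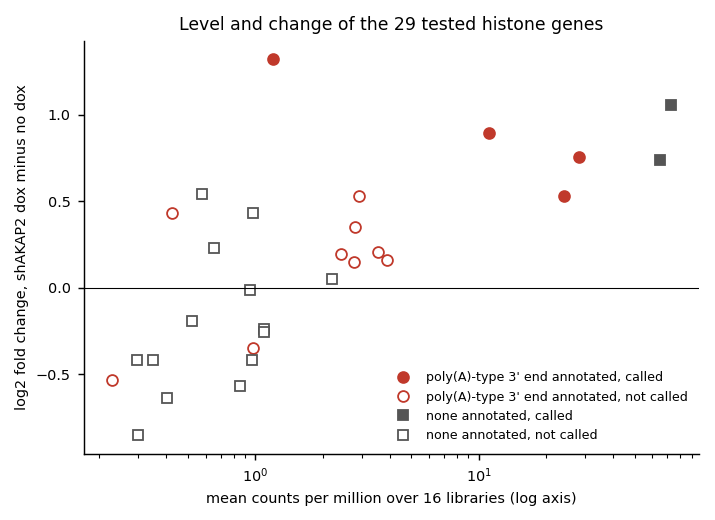
Mean level over 16 libraries in CPM (log axis) and log2 fold change for dox in shAKAP2, for the 29 tested members, by whether GENCODE draws an extended 3′ end (circles, yes; squares, no; filled, called). The 6 called genes include the 5 of highest level, and HIST1H3H lies near 1 CPM at 1.32.

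Many H2A and H2B genes stand back to back and share a promoter, and in 6 such pairs both genes were tested. The starts of HIST1H2BC and HIST1H2AC are 218 bases apart; HIST1H2AC stood at 14.4 RPKM and rose by a log2 value of 0.53, while HIST1H2BC stood at 2.89 RPKM with a value of 0.19 (SE 0.24) that was not called. HIST1H2BK and HIST1H2AH are 330 bases apart, and here HIST1H2BK stood at 169 RPKM and HIST1H2AH at 0.773, with log2 values of 0.74 (called) and -0.85 (SE 0.657, not called). HIST1H2BJ and HIST1H2AG, 291 bases apart, stood at 3.74 and 1.24 RPKM with log2 values of 0.20 and 0.35, neither called. HIST1H2AM and HIST1H2BO, 313 bases apart, stood at 2.46 and 2.88 RPKM with log2 values of -0.42 and -0.25, neither called. The last 2 pairs were HIST2H2BE and HIST2H2AC, at 1.27 and 2.51 RPKM with 0.15 and 0.43, and HIST1H2BL and HIST1H2AI, at 0.607 and 1.15 RPKM with -0.42 and 0.54, none called. Levels thus differed widely within the HIST1H2BK and HIST1H2BC pairs and were close in that of HIST1H2AM, on lengths that rest on the annotation. HIST1H2AM shares 88.0% of its exon bases with HIST1H3J on the same strand. Reads there may not have been counted for either gene, so the level of HIST1H2AM is uncertain.

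The octamer ATTTGCAT, the site of the OCT factors known from H2B promoters, was searched on both strands in the RefSeq windows from 250 bases before to 50 bases after the start, which matched 28 of the 37 members. It was found in 13 of 28, namely 7 of 10 H2B and 6 of 7 H2A genes and none of the 11 H1, H3 and H4 genes, and in 1.77% of 35116 promoters. The windows below hold it in capitals, in either direction, for the called H2A and H2B genes that have it (GRCh38.p14, 5′ to 3′ on the gene's strand).
HIST1H2BK, chr6:27146886-27146915, minus strand: ctcttcaccttATTTGCATgagaggtccta
HIST1H2BJ, chr6:27132824-27132853, minus strand: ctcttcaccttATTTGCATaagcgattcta
HIST1H2AG, chr6:27132824-27132853, plus strand: tagaatcgcttATGCAAATaaggtgaagag
HIST1H2AC, chr6:26124031-26124060, plus strand: tgggcagagctATGCAAATgaggtatgaaa
HIST1H2BJ and HIST1H2AG read the same octamer from opposite strands, 39 and 200 bases before their starts. The TATA letters TATAAA were in 22 of 28 windows against 11.5% of all, and the CCAAT letters in 24 of 28 against 34.6%. Within H2B the octamer did not separate genes called with dox in shAKAP2 from uncalled ones. HIST1H2BD was called and has none in this window, while HIST2H2BE, at 0.15 (SE 0.272) and not called, has it. HIST1H1C, HIST1H4I and HIST1H3H were called and have none, but no H1, H3 or H4 window has it. These matches are descriptions of sequence and no measure of binding.

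The genes that make and process histone mRNA were read from lists drawn up with earlier results of these data known. The counts of each list below stand beside 13.1% of all tested genes called higher and 15.2% called lower with dox in shAKAP2, and no list was tested against that background. Of 27 tested genes of histone mRNA 3′ end processing, 6 rose and 4 fell with dox in shAKAP2 (median log2 0.1). CSTF2, a cleavage stimulation subunit, fell by 0.88 and CASP8AP2 (FLASH), a partner of U7, by 0.49, while the U7 protein gene LSM11 rose by 0.85 and the endonuclease gene CPSF3 by 0.35 (edgeR adjusted p 0.000103, 0.000298, 0.000176 and 0.000722). The stem-loop binding protein gene SLBP was not called (log2 -0.19, SE 0.0716, edgeR adjusted p 0.0543), nor was NPAT, an activator of histone genes (log2 0.03, SE 0.0755). Of 15 genes of poly(A) cleavage and tailing 3 rose and 1 fell, among them PABPC1 at 0.46 and PABPC4 at 0.34, both poly(A) binding proteins, PAPOLG at 0.28 and PAPOLA, a poly(A) polymerase, at -0.22. Of 19 exosome genes 4 rose and 2 fell, among them ZCCHC8 at 0.41 and the nuclease gene DIS3 at -0.25. In shScramble no gene of these 3 lists was called.

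A list of histone variant genes apart from the members was read alongside. Of 11 tested variant genes 4 rose and 1 fell with dox in shAKAP2 (median log2 0.02). H3F3A, which encodes H3.3, rose by 0.47 and H1FX, a linker histone, by 0.5, while H2AFZ, which encodes H2A.Z, fell by 0.51 (edgeR adjusted p 5.91e-06, 9.39e-06 and 0.000176). H2AFX, the H2A.X gene, rose by 0.47 in shAKAP2 (edgeR adjusted p 0.00237) and changed by -1.18 in shScramble (edgeR adjusted p 2.06e-06). The summed level of the variants was 2540 to 2700 CPM in shAKAP2 dox and 2590 to 2670 in shAKAP2 no dox, which overlap. Of 23 histone chaperone genes 4 rose and 3 fell, among them ASF1B at 0.57, RBBP4 at 0.28, CHAF1B at -0.53 and NAP1L4 at -1.7.

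Cell cycle genes changed in both directions. Of 40 S phase and DNA replication genes 9 rose and 2 fell with dox in shAKAP2 (median log2 0.08), with MCM6 of the replicative helicase at 0.36, the cyclin gene CCNA2 at 0.37, UHRF1 at -1.33 and the polymerase gene POLA1 at -0.62. Of 24 G2 and mitosis genes 2 rose and 2 fell, with AURKB at 0.56, CDK1 at 0.31, CENPE at -0.53 and BUB1B at -0.33. Of 16 genes of cell cycle exit none rose and 2 fell, RB1 by 0.47 and CDKN1B by 0.33. In shScramble, 1 of these 80 genes was called, an S phase gene that was lower. The S phase genes summed to 6090 to 6480 CPM in shAKAP2 dox and 5720 to 5980 in shAKAP2 no dox. Their part in the histone values was not tested.

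RNAs that normally have no poly(A) tail were read as well. Of 26 such RNAs 8 were at 0 in all libraries and 3 could be tested, with none called in any of the 5 comparisons. Their summed level was 6.72 to 10.4 CPM in shAKAP2 no dox and 6.29 to 14.4 in shAKAP2 dox, which overlap. RN7SL2, the signal recognition particle RNA that gave most of this sum, had a log2 value of 0.17 (SE 0.276, edgeR adjusted p 0.699). Of 13 mitochondrially encoded mRNAs, which carry short poly(A) tails, 0 rose, 5 fell and 8 were not called with dox in shAKAP2. They took 1.02% to 2.04% of counts in shAKAP2 dox against 1.86% to 2.38% without dox, which overlap. The part of either group of RNAs in the histone result was not tested.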

How the data were processed

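The authors deposited raw read counts per gene for 16 libraries in 1 table, made from oligo(dT)-selected RNA with NEBNext Ultra II kits, per the labels' protocols. STAR 2.5.2b, featureCounts and Subread 1.5.2 are named in the submitters' processing notes with GRCh38; the annotation release and strand setting were not given in the sources used here. All 57500 genes, of which 485 had no name, were kept in library sizes.

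Genes passing filterByExpr (15566) were fitted together by edgeR 4.0.16 (R 4.3.3; quasi-likelihood, robust, TMM factors 0.979 to 1.01) over 4 groups, with 5 contrasts and Benjamini-Hochberg adjustment over all genes. CPM uses TMM-scaled library sizes. The biological coefficient of variation was 14.4%. Alternatives were no filter, DESeq2 1.42.0, limma-voom 3.58.1, upper-quartile scaling, a replicate block, both shScramble replicate 1 libraries left out, and each library left out. The fit was tested on simulated data. Replicates differed by more than sampling noise. Sequence features came from GENCODE 29 and RefSeq tables, matched by identifier or symbol (89 of 90 rows to GENCODE, 28 of 37 promoters to RefSeq).

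Genes given with every library were those called in the shAKAP2 dox comparison or the difference between lines, or with a mean of 5 CPM or more; others called had group means, and companion lists up to 4 genes of smallest p. SLBP and NPAT were added for their role. Members and lists were chosen with earlier results of these data known.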

Additional observations from a re-analysis of the deposited data

Results flagged for a closer look

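The 12 genes called in any comparison were looked at in each of the 4 groups for a library far from the other 3, a check that chance meets in about 1 in 20 groups. It was met in 2 of 48 groups. HIST1H1C was lowest in shScramble no dox replicate 1, at 37.4 CPM against 51.2 to 53.8 in the others. HIST1H2AG was highest in shAKAP2 dox replicate 3, at 5.07 CPM against 3.33 to 3.55.

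The dox effect differed between the lines for 7 genes by the edgeR test of that difference (n = 4 libraries a group), in each case toward higher values in shAKAP2. The differences on the log2 scale were 1.09 for HIST1H1C, 0.43 for HIST1H2AC, 0.79 for HIST1H2BD, 0.94 for HIST1H2AG, 0.89 for HIST1H4I, 0.85 for HIST1H2BK and 1.99 for HIST1H3H.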

How the results depend on the processing

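Across the 22 alternatives, the number of members called higher stayed at 6, or 7 in 1 case, with dox in shAKAP2, at 0 in shScramble, at 5 to 7 for the difference between the lines and at 10 to 12 between the lines with dox, and no member was called lower in any of them. Between the lines without dox it was 2 to 6 over all alternatives and 2 to 5 over those that left out 1 library, with 2 without shAKAP2 no dox replicate 1 or 2. With a replicate block the counts called higher were 6, 0, 7, 3 and 12 in the order of the report and 0 lower. Of 15566 genes tested with the block, 2097, 93, 1192, 1404 and 2977 were called higher and 2446, 80, 1722, 1465 and 3352 lower. By the correlation of deviations from group means, replicate numbers paired the shScramble libraries without and with dox in part. The values were 0.4, 0.023, 0.197 and 0.07 for replicates 1 to 4. In shAKAP2 they were 0.04, 0.013, -0.018 and 0.053, so replicate numbers did not pair the libraries there. No called log2 value changed sign in 638 refits, and 41 no longer passed the threshold. Of these, 13 were HIST1H2AC in the difference between the lines, without filtering or without any single library other than shScramble no dox replicate 3, shScramble dox replicate 1 or 3, or shAKAP2 no dox replicate 3 (log2 0.37 to 0.51 over all). HIST1H2AG lost the difference without filtering (edgeR adjusted p 0.0841), shScramble dox replicate 4 (0.0565), shAKAP2 no dox replicate 2 (0.0501) or shAKAP2 dox replicate 3 (0.0659). HIST1H2BN without dox was lost with the block (0.0508) and without any of 8 libraries (up to 0.142), and HIST1H4I without any of 5 (0.0594 to 0.0888). With dox, HIST1H4H was lost without filtering (0.0717) and without any of 5 libraries (0.0527 to 0.0984), and HIST2H2BA without shScramble dox replicate 1 (0.0684) or 2 (0.0716) or shAKAP2 dox replicate 4 (0.083). The cause was not tested. The 14 tested members under 1 CPM have standard errors that hide moderate changes, and the counts cover only histone RNA captured by poly(A) selection.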
